A study of Mus musculus with 4 samples.

Results

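Foxp1, Foxp2 and Foxp4 are the 3 forkhead box P genes described here, taken by name as 3 of the 27998 gene rows of a single-cell RNA-seq library of the developing arcuate nucleus (ARC). The cells came from 6 Pomc-eGfp embryos of the strain C57BL/6, with the age given as E15 in the labels and as E15.5 in the titles. GFP was used only to find the region under the microscope, so the dissected tissue was not sorted, and the embryos were pooled before digestion. The 4 sample records stand for runs of this pool and share 1 table with no map from cell barcodes to runs or embryos. There is thus 1 sample, with no biological replicate, no untreated or mutant group and no test between conditions. All comparisons below are between groups of cells of this library, and all intervals are 95% intervals that cover counting error only.

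Forkhead box P proteins bind DNA through a forkhead domain and act mostly as repressors. They pair with themselves or with each other through a zinc finger and leucine zipper region, so that the members a cell holds set which dimers it can form. Foxp1 is known for its roles in motor neuron columns, striatal neurons, heart and vessels, Foxp2 for vocal learning and speech and for striatal, thalamic and cerebellar neurons, and Foxp4 for lung, gut and neural progenitors. The family's remaining member, Foxp3, the regulator of regulatory T cells, had 1 UMI (unique molecular identifier, 1 counted RNA molecule) in all cells.

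In GENCODE vM21 (GRCm38) Foxp1 (ENSMUSG00000030067) lies on chromosome 6 from 98925338 to 99522721 on the minus strand. Foxp2 (ENSMUSG00000029563) lies on the same chromosome from 14901349 to 15441977 on the plus strand. Foxp4 (ENSMUSG00000023991) lies on chromosome 17 from 47867133 to 47924645 on the minus strand. Foxp1 overlaps Gm20696, a gene model on its own strand with 195 UMIs, and reads in the shared stretch could not be traced. Foxp4 overlaps an antisense gene with 2 UMIs. The coding sequences are alike, with 69.6% of aligned bases identical between Foxp1 and Foxp2, 64.9% between Foxp1 and Foxp4 and 65.8% between Foxp2 and Foxp4. The most alike stretch of 60 coding bases inside 1 exon of each gene is shown to let the 3 genes be compared base by base. Capitals mark the 14 bases that are not the same in all 3 genes, and the other 46 are identical.
Foxp1: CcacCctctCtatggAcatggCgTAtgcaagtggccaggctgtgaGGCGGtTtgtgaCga
Foxp2: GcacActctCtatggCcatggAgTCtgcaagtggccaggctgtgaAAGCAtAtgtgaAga
Foxp4: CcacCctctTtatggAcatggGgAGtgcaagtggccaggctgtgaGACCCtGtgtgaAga
These bases are coding exon sequence at chr6:98978151-98978210 (minus strand, exon 7 of the Foxp1 transcript used), chr6:15396766-15396825 (plus strand, exon 9 of Foxp2) and chr17:47877946-47878005 (minus strand, exon 8 of Foxp4). Over all annotated transcripts, the longest run of identical bases was 35 between Foxp1 and Foxp2, 21 between Foxp1 and Foxp4 and 20 between Foxp2 and Foxp4.

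After filtering, 6351 of 6465 barcodes were kept, with 24430646 UMIs in all and between 1748 and 16836 per cell. The labels call the cells ARC neurons, but 4006 of the 6351 cells had at least 2 UMIs of Stmn2, a neuronal tubulin regulator, and 2345 did not. Neurons were grouped by at least 2 UMIs of Ghrh (47 cells), Otp (537), Fezf1 or Nr5a1 (255), Robo3 (149) or Gbx2 or Kitl (329). Of the 5 or 6 further markers listed for each neuron gate, 4 or 5 were at least 2-fold higher in it than in all other cells. Lef1 was lower in Gbx2/Kitl neurons than in all other cells, with a log2 ratio of -1.10 (-1.65 to -0.59). Tac2 was not higher in Robo3 neurons (-0.24, -3.31 to 1.66). Hmx3 had 1 UMI in Ghrh neurons, Syt15 0 UMIs in Robo3 neurons and Bsx 0 UMIs in Otp neurons. The 2345 other cells held 538 neural progenitors, 123 intermediate precursors and cells with pituitary (570), mesenchymal (114), mural (40), macrophage (31) or endothelial (19) markers, while 880 had none of these.

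All 3 genes were sparse. Foxp1 had 2719 UMIs in 1798 cells (28.3%), Foxp2 2028 UMIs in 1111 cells (17.5%) and Foxp4 671 UMIs in 596 cells (9.38%). Most cells that held a gene held 1 UMI of it, namely 69.4% of Foxp1-positive, 58.6% of Foxp2-positive and 88.9% of Foxp4-positive cells. The most in a cell was 12, 11 and 4 UMIs, respectively. A cell without a UMI was therefore not shown to lack the RNA, and levels were taken as CPM, the share of a gene in all UMIs pooled over a group.

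Foxp2 was higher in neurons than in neural progenitors, though Otp neurons and mesenchymal-like cells, described further on, did not follow this order. Its level was 107 CPM in neurons (102 to 113) and 39.1 CPM in neural progenitors (31.2 to 48.4), and 81.8% of its UMIs were in neurons, which held 63.2% of all UMIs. The log2 ratio of neurons to progenitors was 1.46 (1.14 to 1.79). Foxp1 went the other way, with 90.3 CPM in neurons, 124 CPM in progenitors and a log2 ratio of -0.45 (-0.64 to -0.26). Foxp4 was 24.3 CPM in neurons and 25.6 CPM in progenitors, with a log2 ratio of -0.07 (-0.48 to 0.36). Foxp2 was thus the only member more than 2-fold apart between these groups. The background was wide here, since 13.8% of 13045 tested genes were at least 2-fold higher in neurons and 17.9% at least 2-fold lower, each with an interval that left out 0. With scaling by the median gene the split was 17.3% and 14.9%.

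Intermediate precursors, the cells with Dll1 or Gadd45g that leave the cycle, had 52.0 CPM of Foxp2, 149 CPM of Foxp1 and 39.6 CPM of Foxp4. Cycling progenitors had 44.5, 137 and 24.7 CPM of Foxp2, Foxp1 and Foxp4. The hypothalamic progenitors with Nkx2-1 or Rax had 30.7, 103 and 15.9 CPM of the same genes. The Foxp2 intervals of these groups overlapped each other, and all lay below that of all neurons.

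**Figure D1:**
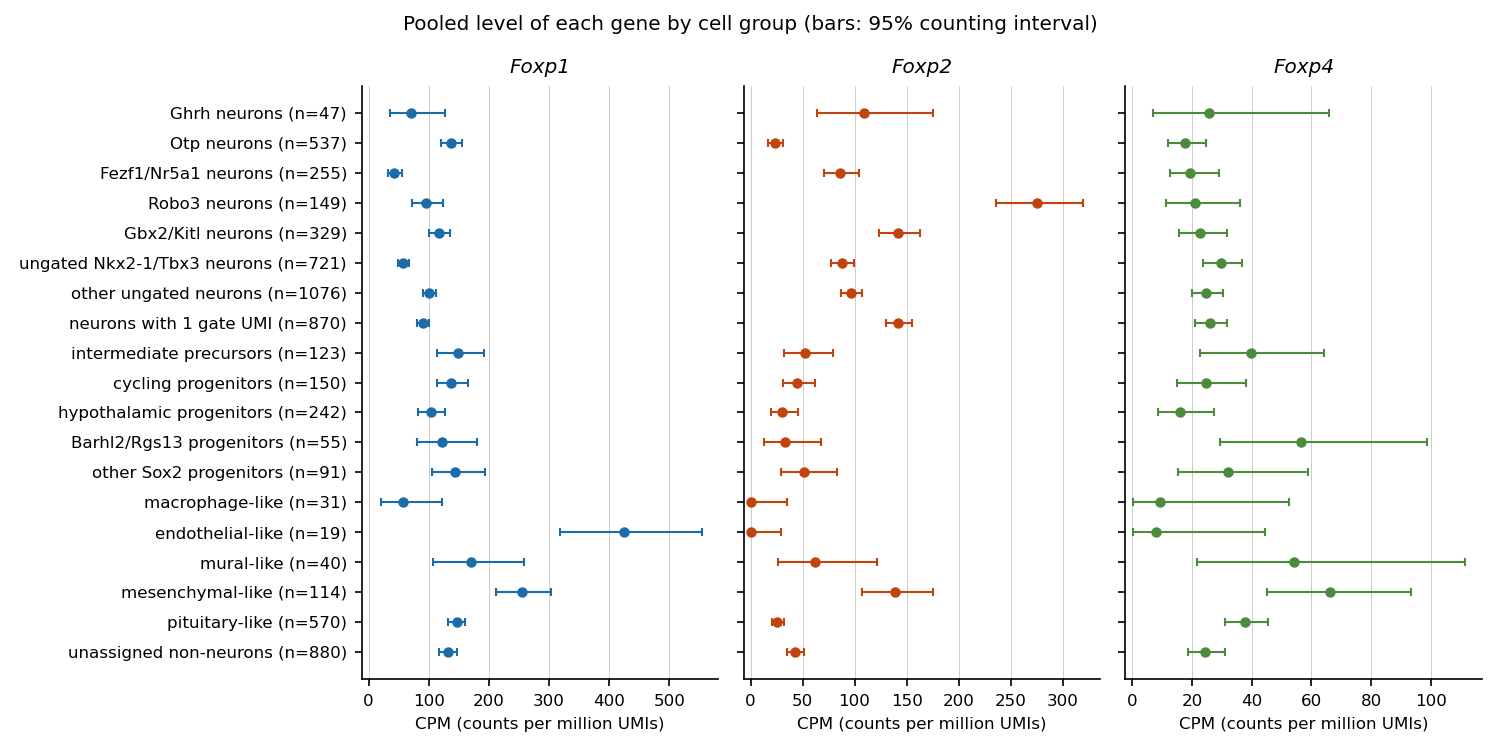
Pooled level of Foxp1, Foxp2 and Foxp4 in each cell group, as CPM with 95% counting intervals and the number of cells in brackets. Among the groups shown, Foxp2 peaked in Robo3 neurons at 275 CPM, Foxp1 in endothelial-like cells at 424 CPM, and the Foxp4 intervals of the neuron groups overlapped.

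Among the neuron gates Foxp2 covered a wide range. It was at 275 CPM in Robo3 neurons (236 to 320), 142 CPM in Gbx2/Kitl neurons (123 to 162), 109 CPM in Ghrh neurons (63.7 to 175), 86.0 CPM in Fezf1/Nr5a1 neurons (70.4 to 104) and 23.1 CPM in Otp neurons (16.6 to 31.4). The share of cells with a Foxp2 UMI was 64.4% in Robo3 neurons (56.2 to 72.1) and 5.03% in Otp neurons (3.34 to 7.23). After each cell was thinned to 2167 UMIs these shares were 45.9% and 4.0%. As a measure of free RNA, 0 of the 50 macrophage- and endothelial-like cells held a Foxp2 UMI, which allows a share of up to 6%, at a median depth of 3298 UMIs against 3921 in Robo3 neurons. In the order of the 19 groups with at least 30 cells, Robo3 neurons stood above the next group, neurons with 1 gate UMI (log2 ratio 0.96, 0.70 to 1.21), and no other neighbours in the Foxp2 or Foxp1 order differed beyond counting error.

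Robo3 neurons, named for the axon guidance receptor and marked also by Pou4f1, Irx1 and Irx2, had 2.87-fold more Foxp2 than the other neurons, a log2 ratio of 1.52 (1.28 to 1.75). In this comparison 3.16% of 12481 tested genes were called higher and 5.59% lower. Foxp1 and Foxp4 gave log2 ratios of 0.07 (-0.33 to 0.45) and -0.22 (-1.15 to 0.57). Foxp2 was also higher in Robo3 than in Gbx2/Kitl neurons (0.96, 0.66 to 1.25) and than in Ghrh neurons (1.33, 0.61 to 2.15). The order held for the Gbx2/Kitl gate as a whole, not for its 60 cells with Gbx2, described below, which had 750 CPM of Foxp2. Of the 149 Robo3 neurons 138 held a Pou4f1 UMI, and Foxp2 was at 282 CPM in these and at 183 CPM in the other 11, with overlapping intervals.

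Otp neurons, which include the developing Agrp and Sst neurons of the ARC, were the opposite case. Foxp2 was 5.21-fold lower there than in the other neurons, a log2 ratio of -2.38 (-2.86 to -1.93), against 4.35% of 12498 genes called lower. Foxp1 was higher in the same cells, at 137 CPM against 83.9 CPM, with a log2 ratio of 0.70 (0.50 to 0.91), which does not reach 2-fold (1.91% of genes were called higher). Foxp4 gave -0.53 (-1.11 to 0.01). Foxp2 and Otp were also seldom found in the same neuron, with 66 cells that held both where 157 would by independent detection, a ratio of 0.42 (0.32 to 0.53). Foxp1 and Otp gave 1.11 (0.96 to 1.28) with all UMIs, 1.35 (1.12 to 1.61) after thinning and 1.34 (0.99 to 1.79) with at least 2 UMIs of each gene.

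Inside the Otp gate Foxp1 was uneven, as was seen after the gate was divided by Sst. The 153 Otp neurons with at least 2 UMIs of Sst, the somatostatin gene, had 279 CPM of Foxp1, and the 359 without Sst had 79.0 CPM, a log2 ratio of 1.82 (1.43 to 2.21). A Foxp1 UMI was found in 47.1% of the former and 19.8% of the latter, or 37.0% and 15.2% after thinning. Foxp2 was low in both, with 3 UMIs in all in the Sst cells (6.25 CPM) and 31.3 CPM in those without Sst. The 15 neurons with Sst but no Otp UMI had 231 CPM of Foxp1 and 0 Foxp2 UMIs, which allows up to 62.9 CPM. When the Otp neurons were divided instead by peptide, Foxp1 was at 247 CPM with Sst only, 125 CPM with Npy or Agrp and 88.2 CPM with none, and Foxp2 at 7.05, 8.08 and 40.0 CPM. Foxp4 was at 14.1, 32.3 and 10.6 CPM, and was higher with Npy or Agrp than with none of the peptides (log2 ratio of none to Npy or Agrp -1.61, -2.97 to -0.35).

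Fezf1/Nr5a1 neurons, which carry genes of the ventromedial hypothalamus, had a low Foxp1 level, with 42.2 CPM against 99.3 CPM in other neurons. Its interval overlapped those of Ghrh neurons, ungated Nkx2-1/Tbx3 neurons and macrophage-like cells. The log2 ratio was -1.24 (-1.66 to -0.83), while 4.82% of 12386 genes were called lower and 1.94% higher. Foxp2 gave -0.37 (-0.67 to -0.08) and Foxp4 -0.31 (-0.98 to 0.29). A split of the gate, also made after the values were seen, showed a difference inside it. The 47 neurons with Nr5a1 and no Fezf1 UMI had 240 CPM of Foxp2, the 95 with both genes 63.9 CPM and the 113 with Fezf1 and no Nr5a1 UMI 31.4 CPM. Foxp2 was found in 24 of the 47 Nr5a1-only neurons (51.1%) and in 14 of the 113 Fezf1-only neurons (12.4%), and in 30.4% and 5.45% after thinning. The log2 ratio of Fezf1-only to Nr5a1-only neurons was -2.93 (-3.80 to -2.14). Foxp1 was at 51.8 and 43.3 CPM in these classes and did not separate them (0.26, -0.79 to 1.41). Stmn2 and Sox14, a ventromedial and arcuate transcription factor gene, were measured beside it, with log2 ratios of Nr5a1-only to Fezf1-only neurons of 0.02 (-0.10 to 0.13) and 0.16 (-0.27 to 0.59).

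The Gbx2/Kitl gate was mixed, with Foxp2-rich and Foxp2-poor cells. In the gate as a whole Foxp2 and Foxp1 were moderately higher than in other neurons, with log2 ratios of 0.54 (0.33 to 0.75) and 0.45 (0.21 to 0.68), and Foxp4 gave -0.11 (-0.67 to 0.40). No member passed 2-fold, where 4.1% of 12414 genes were called higher and 3.12% lower. For Foxp2 this depended on the processing, with 1.05 from per-cell CPM, 1.10 after thinning (0.82 to 1.38) and 0.17 (-0.07 to 0.41) in neurons with at least 5 Stmn2 UMIs. The 60 cells with a UMI of Gbx2, a homeobox gene of the developing thalamus, had 750 CPM of Foxp2 and 449 CPM of Foxp1. The 269 cells with Kitl, the Kit ligand gene, but no Gbx2 had 35.4 CPM of Foxp2 and 58.2 CPM of Foxp1. The split was made after the values were seen. These are log2 ratios of 4.40 (3.92 to 4.91) for Foxp2 and 2.95 (2.50 to 3.40) for Foxp1. Foxp4 had 3 and 31 UMIs, or 13.5 and 24.4 CPM, and no difference beyond counting error (-0.86, -3.21 to 0.82). Of the 60 Gbx2 cells 51 held Foxp2, 42 held at least 2 UMIs of it, and 48 held Foxp1, while 25 and 48 of the 269 Kitl-only cells did so.

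Other lineages' markers moved with Foxp2 in this gate. In its 76 Foxp2-positive against 253 Foxp2-negative cells the pituitary list summed to 212 against 38.0 CPM, from 6 of the 76 cells and with 2 of its 8 genes at 0. The mesenchymal list summed to 129 against 6.04 CPM (3 cells, 2 of 7 genes at 0) and the mural list to 108 against 6.90 CPM (4 cells, 1 of 7 at 0). The neural progenitor list summed to 550 against 323 CPM (0.77, 0.51 to 1.03), from 38 of the 76 cells with none of its 8 genes at 0, and the endothelial list to 14.9 against 55.2 CPM (-1.89, -3.56 to -0.59), from 5 cells with 3 of its 7 genes at 0. The part of these lists was not tested. Without every cell that held a UMI of the pituitary, mesenchymal or mural list, 59 of the 60 Gbx2 cells and 227 of the 269 Kitl-only cells remained. Foxp2 was at 751 and 30.9 CPM in them (4.61, 4.04 to 5.21) and Foxp1 at 454 and 50.8 CPM (3.16, 2.66 to 3.68).

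Foxp2 was also high in the 98 neurons with any Gbx2 UMI, at 680 CPM, and 81 of them held it where 20.6 would by independent detection. Foxp2 was at 619 CPM in neurons with 1 Gbx2 UMI, 733 CPM with at least 2 and 93.4 CPM with none. Foxp1 was at 356, 450 and 82.6 CPM. The Gbx2 and Kitl-only cells differed in other genes too. Tcf7l2, a Wnt effector with high levels in the thalamus, was at 6722 and 1127 CPM, Lhx2 at 440 and 27.5 CPM and Lhx9 at 952 and 261 CPM, in Gbx2 and Kitl-only cells respectively. Neurog2, a proneural factor gene, was at 139 and 11.8 CPM and Stmn2 at 2133 and 2685 CPM (log2 -0.33, -0.47 to -0.19). In all cells outside the gate Tcf7l2 was at 683 CPM, Lhx2 at 35.1 CPM and Lhx9 at 125 CPM. The Kitl-only cells were above these levels for Tcf7l2 and Lhx9, but not for Lhx2. Foxp1 and Foxp2 were found in the same Gbx2/Kitl neuron 53 times where 22.2 would by independent detection (2.39, 1.79 to 3.13). Inside the Kitl-only cells the ratio was 2.47 (1.23 to 4.41, 11 cells). After thinning it was 3.33 there (0.91 to 8.53, 4 cells), an interval that takes in 1. Inside the Gbx2 cells 42 of 60 held both, and each gene was found in so many of them that an excess of that size could not show.

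**Figure D2:**
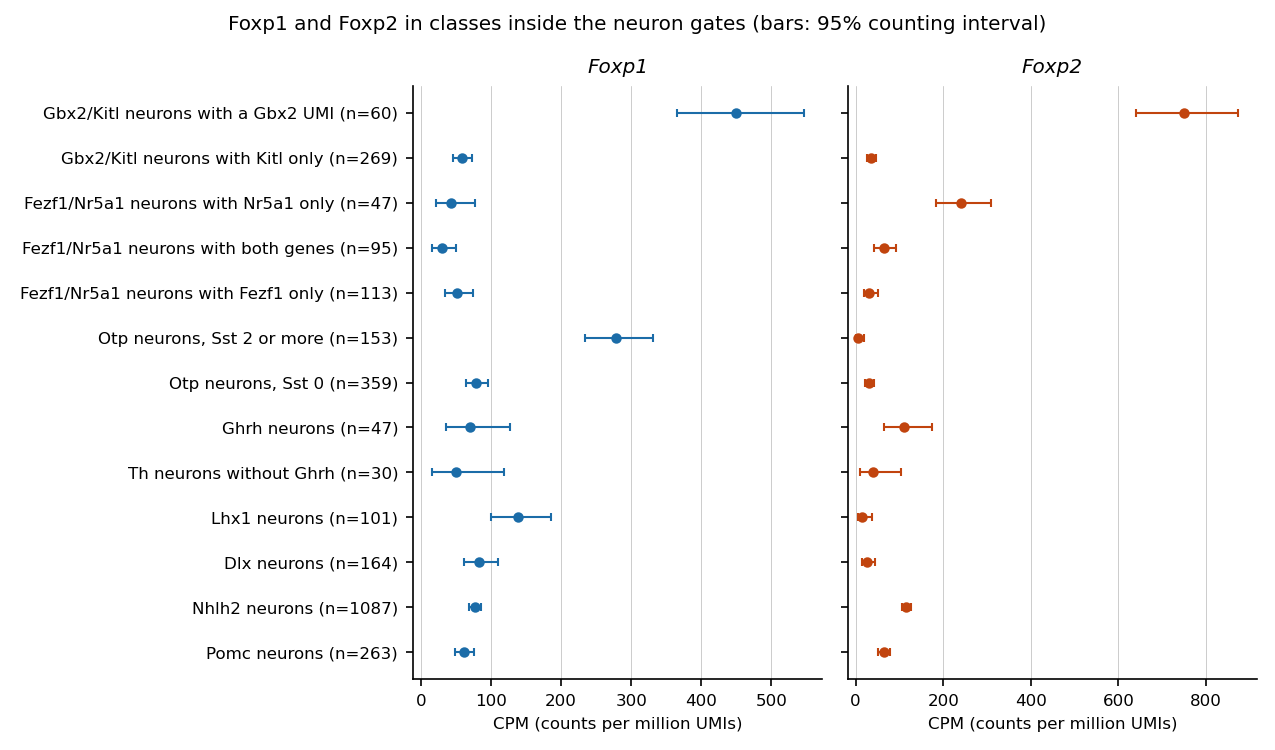
Foxp1 and Foxp2 level in classes of cells inside the neuron gates and in further classes taken by marker genes over all neurons, as CPM with 95% counting intervals and the number of cells in brackets. Both genes were highest in the Gbx2 cells, at 449 and 750 CPM, while Otp neurons with Sst were high in Foxp1 only.

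Ghrh neurons make growth hormone-releasing hormone and hold Th, Gsx1 and Dlx1. The 47 cells had 17 Foxp2 UMIs in 12 cells (25.5%, 13.9 to 40.3), 11 Foxp1 UMIs in 9 cells and 4 Foxp4 UMIs in 4 cells. The Foxp2 level of 109 CPM was close to the 108 CPM of the other neurons, a log2 ratio of 0.02 (-0.76 to 0.71), an interval that still allows changes of more than 1.5-fold in either direction. Foxp1 gave -0.36 (-1.37 to 0.48) and Foxp4 0.08 (-1.81 to 1.44), so that no member was called, against 3.86% of 12557 genes higher and 2.41% lower. With scaling by the median gene those shares were 2.84% and 3.34%. Against the Otp neurons Foxp2 was 4.72-fold higher in Ghrh neurons (log2 2.24, 1.33 to 3.09) and Foxp1 lower (-0.95, -1.97 to -0.08). Against neurons with Nkx2-1 or Tbx3, genes of the tuberal hypothalamus, and no gate UMI, Foxp2 gave 0.32 (-0.49 to 1.03). Ghrh neurons themselves seldom held these tuberal genes. Nkx2-1 or Tbx3 was found in 1 of 10 neurons with 2 to 4 Ghrh UMIs and 4 of 39 with at least 5. The share was 37.2% in neurons without Ghrh.

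Foxp2 did not differ beyond counting error between neurons with different numbers of Ghrh UMIs. It was 107 CPM in neurons with no Ghrh UMI, 143 CPM in the 44 with 1 UMI, 85.6 CPM in the 10 with 2 to 4 UMIs and 113 CPM in the 39 with at least 5, with overlapping intervals. A Th UMI was found in 31 of the 39 cells with at least 5 Ghrh UMIs but in 6 of the 44 with 1, so that cells with 1 Ghrh UMI were poor in this marker of the class. In the Ghrh gate, all 12 Foxp2-positive cells held a Th UMI, as did 27 of the 35 others, and Dlx1 or Dlx2 was found in 9 of 12 and 28 of 35.

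Neurons with Dlx or Lhx1 but no Ghrh were poor in Foxp2. These and the Th, Pomc and Nhlh2 classes were taken by marker genes over all neurons, with no Nkx2-1 or Tbx3 UMI required. Of the 321 neurons with Dlx1, 88 held Nkx2-1 or Tbx3. Nhlh2 itself was at 567 CPM in Robo3 neurons against 309 CPM in the other neurons. The 164 Dlx neurons without Ghrh, Th or Lhx1 had 26.5 CPM (14.8 to 43.7) and the 101 Lhx1 neurons 15.7 CPM (5.09 to 36.6). The 30 Th neurons without Ghrh had 40.6 CPM (11.1 to 104), an interval that overlaps that of all neurons. Foxp1 was at 83.0, 138 and 50.8 CPM in the Dlx, Lhx1 and Th classes. Pomc neurons (263 cells) had 64.1 CPM of Foxp2, 61.1 CPM of Foxp1 and 32.8 CPM of Foxp4, and Nhlh2 neurons (1087 cells) had 116, 76.9 and 23.7 CPM. Across all neurons Foxp2 and Dlx1 were found together in 28 cells where 67.4 would by independent detection (0.42, 0.28 to 0.60). In the Nkx2-1/Tbx3 neurons they were together in 5 cells of 17.3 expected (0.29, 0.09 to 0.67), in 0 of 7.42 after thinning and in 2 of 2.31 with at least 2 UMIs of each gene (0.86, 0.10 to 3.12). For Foxp2 and Ghrh the ratio over all neurons was 1.43 (0.95 to 2.07).

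**Figure D3:**
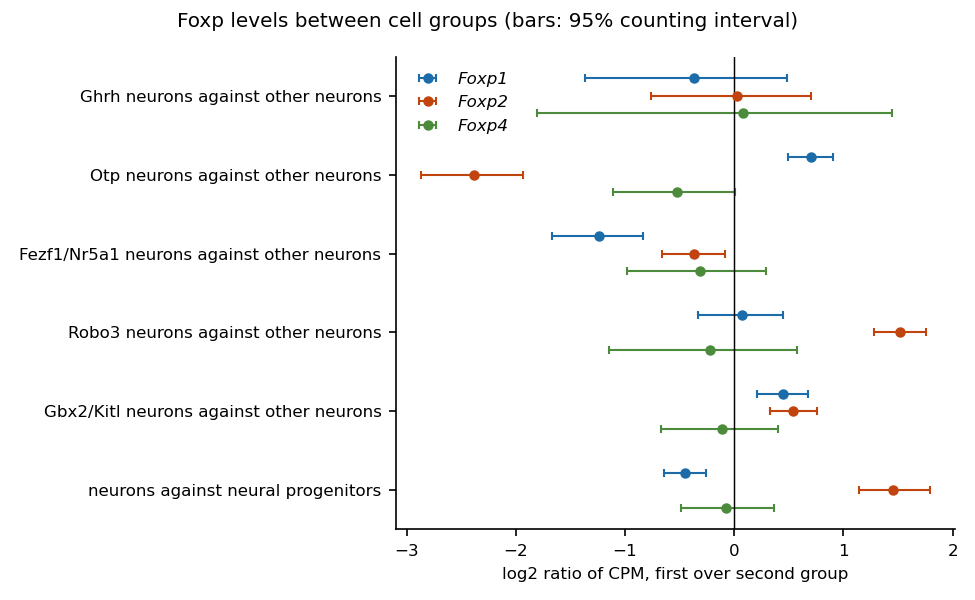
log2 ratio of CPM for each member, each neuron gate against the other neurons and neurons against neural progenitors, with 95% counting intervals. Foxp1 and Foxp2 lie on opposite sides of 0 in Otp neurons, at 0.70 and -2.38, and on the same side in Gbx2/Kitl neurons.

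Foxp1 and Foxp2 also differed in their relation to Stmn2, a gene that rises as neurons differentiate. From the lowest to the highest tercile of that share in all neurons, Foxp1 was at 131, 90.5 and 57.8 CPM and Foxp2 at 95.8, 105 and 118 CPM. The contrast was sharper in the 1471 neurons with Nkx2-1 or Tbx3. There Foxp1 was at 120, 55.9 and 49.3 CPM (log2 of high over low -1.29, -1.62 to -0.96), Foxp2 at 36.1, 91.5 and 124 CPM (1.78, 1.38 to 2.20) and Foxp4 at 19.2, 29.5 and 28.5 CPM (0.57, -0.04 to 1.22). Thinned to equal depth, 6.22% and 19.7% of the low and high tercile held Foxp2. Otp cells moved with this order, since 38.5%, 15.1% and 8.37% of the cells in the 3 terciles held Otp, as did depth, with medians of 2953, 3456 and 4610.5 UMIs. In the 721 of these neurons with no gate UMI, and so no Otp, the log2 ratio of high over low was 1.18 (0.65 to 1.74) for Foxp2 and -1.0 (-1.56 to -0.44) for Foxp1.

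**Figure D4:**
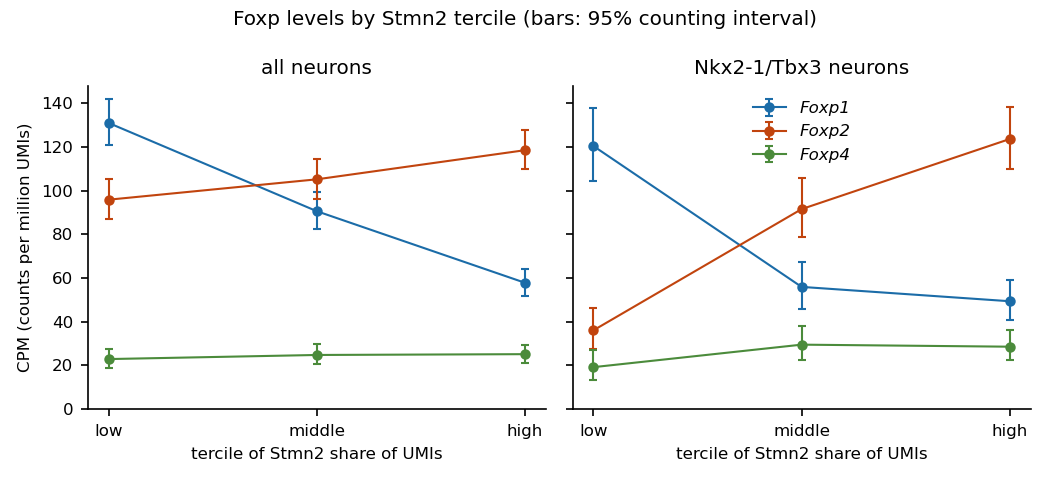
Level of the 3 members by tercile of the Stmn2 share of UMIs, as CPM with 95% counting intervals, in all neurons and in neurons with Nkx2-1 or Tbx3. In the latter Foxp2 goes from 36.1 to 124 CPM and Foxp1 from 120 to 49.3 CPM.

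Across all neurons Foxp1 and Foxp2 were found together in 273 cells where 204 would by independent detection (1.34, 1.19 to 1.51). The ratio was 1.05 (0.72 to 1.47) in Robo3 neurons and 0.97 (0.74 to 1.24) in Nkx2-1/Tbx3 neurons. Pairs with Foxp4 gave 1.05 (0.84 to 1.29) with Foxp1 and 1.17 (0.93 to 1.44) with Foxp2 in neurons. In non-neurons Foxp1 and Foxp4 gave 1.32 (1.09 to 1.58), 1.0 (0.67 to 1.43) once cells were thinned to equal depth and 3.38 (2.01 to 5.35) with at least 2 UMIs of each gene, so that the value depended on how detection was set.

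**Figure D5:**
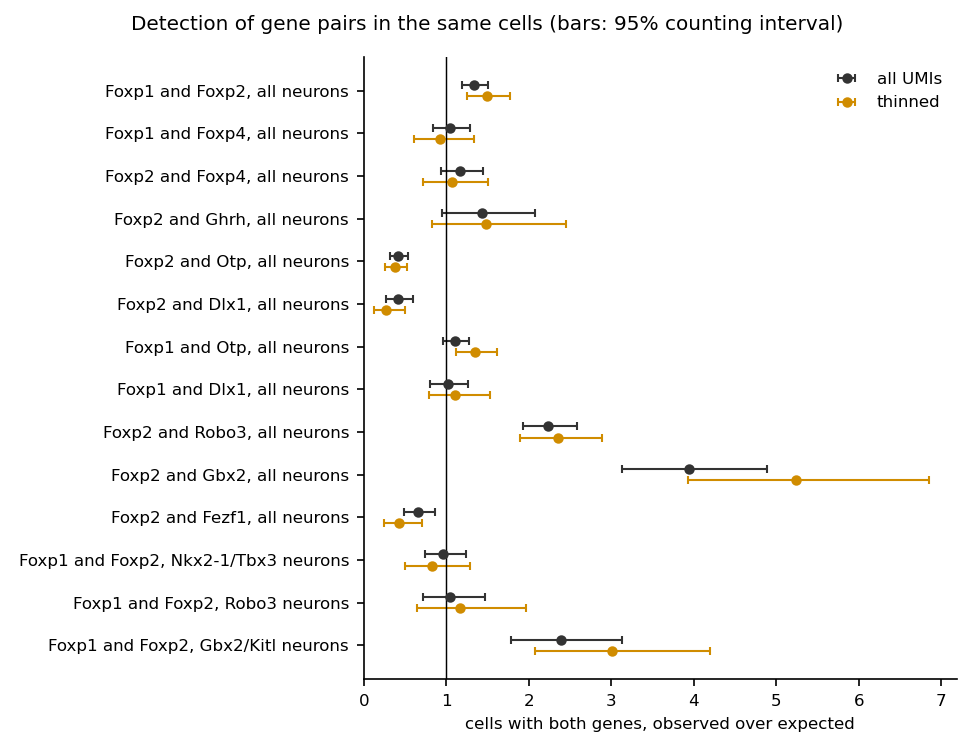
Cells that held both genes of a pair, relative to independent detection (a ratio of 1), with 95% counting intervals, for all UMIs and after thinning to 1 depth. Foxp2 stands at 3.94 with Gbx2 and at 0.42 with both Otp and Dlx1.

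Among the non-neuronal groups Foxp1 was highest in endothelial-like cells. They had 53 Foxp1 UMIs in 14 of 19 cells, or 424 CPM (318 to 555), which was 3.87-fold more than all other cells (log2 1.95, 1.53 to 2.34), and 0 Foxp2 UMIs, which allows up to 24.0 CPM. Mesenchymal-like cells had 254 CPM of Foxp1, 138 CPM of Foxp2 and 66.1 CPM of Foxp4, all above the other cells, with log2 ratios of 1.23 (0.96 to 1.49), 0.76 (0.38 to 1.11) and 1.31 (0.75 to 1.82). Pituitary-like cells, which express the pituitary factor genes Pitx1 or Pou1f1, had 146 CPM of Foxp1, 25.8 CPM of Foxp2 and 37.7 CPM of Foxp4. They were above neural progenitors in Foxp4 (0.56, 0.08 to 1.05) and below them in Foxp2 (-0.60, -1.07 to -0.13). The 31 macrophage-like cells held 0 Foxp2 UMIs (up to 28.2 CPM), 6 Foxp1 UMIs (56.4 CPM, 20.7 to 123) and 1 Foxp4 UMI (9.39 CPM, 0.24 to 52.3), and for the latter genes the counts were too few to place them among the groups. Cells in several lineage gates (30) are not described further.

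The 841 Foxp2-positive neurons were compared with the 3165 others, at median depths of 4041 and 3257 UMIs. Of 12590 tested genes 1.8% were called higher and 1.91% lower. The 10 largest ratios among genes with at least 50 UMIs were those of Gbx2, Pdzrn3, Neurog2, Nrgn, Col1a1, Etv1, Qrfp, Col3a1, Fn1 and Chrna3. Gbx2 was at 45.4 against 2.60 CPM and Neurog2 at 18.7 against 2.68 CPM. Etv1, an ETS factor gene that was in the list of genes reported as Foxp2 targets elsewhere, was at 155 against 29.1 CPM (log2 2.41, 2.22 to 2.61). Etv1 also differed inside groups, at 668 against 213 CPM in Robo3 neurons (1.65, 1.19 to 2.14) and at 146 against 7.92 CPM in Otp neurons (4.20, 3.11 to 5.34), but not in ungated Nkx2-1/Tbx3 neurons (0.19, -0.75 to 1.06). In the Robo3 comparison the pituitary list also moved, at 39.4 against 4.73 CPM, with a UMI in 9 of 96 and 1 of 53 cells and 2 of its 8 genes at 0 in the former, and its part was not tested. Qrfp, a hypothalamic neuropeptide gene, was at 76.9 against 0.609 CPM in Otp neurons, from 10 UMIs in the 27 Foxp2-positive cells and 1 UMI in the others.

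Col1a1, Col3a1 and Fn1 among these are genes of mesenchymal cells. The 7 mesenchymal markers summed to 78.7 CPM in Foxp2-positive and 19.4 CPM in Foxp2-negative neurons, none of the 7 was at 0 in the former, and 5.11% and 3.51% of the cells held a UMI of them. The 5 highest of the Foxp2-positive cells held 217 of the 307 such UMIs. The mural list summed to 24.6 against 12.0 CPM (log2 1.03, 0.64 to 1.42), from 34 cells with none of its 7 genes at 0, and the macrophage list gave a log2 ratio of 0.64 (0.23 to 1.04), from 39 cells with 1 of its 8 genes at 0. The neural progenitor list gave 0.15 (0.08 to 0.23), the pituitary list -0.31 (-0.51 to -0.12) and the endothelial list -0.74 (-1.14 to -0.35). The part of these lists in this comparison was not tested.

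Genes lower in Foxp2-positive neurons included Agrp, Sst, Penk and Dlx6, with Sst at 11.8 against 156 CPM and Npy at 15.9 against 142 CPM. The list of 20 Ghrh-neuron genes had 10 of 18 tested genes lower and 0 higher (1.91% and 1.8% of all genes), with a median log2 ratio of -1.42 against -0.02 for all tested genes. In the 290 Foxp2-positive Nkx2-1/Tbx3 neurons against the 1181 others, 11 of 16 were lower and 0 higher. There 1.35% of 10839 genes were called higher and 2.56% lower. Ghrh itself had 4 and 82 UMIs (2.48 and 18.1 CPM), from 17 cells in all. Both genes were found in 4 cells where 3.35 would by independent detection (1.19, 0.33 to 3.06), and in 0 of 1.24 after thinning, too few to give an order. The 10 leading genes there, like the lower genes above, were picked after their values were seen. They were Sox3, Akap7, Sepp1, Hs3st5, Hbb-y, Plcb1, Serpine2, Bcl11b, Nr4a2 and Islr2. Markers of other cell types moved with this comparison. The macrophage list summed to 29.1 against 4.86 CPM (log2 2.58, 1.82 to 3.39), from 8 of the 290 cells and with 1 of its 8 genes at 0. The mesenchymal list summed to 58.9 against 19.7 CPM (1.58, 1.15 to 2.02), from 17 cells and with 2 of its 7 genes at 0. The neural progenitor list gave 0.13 (0.02 to 0.24), the pituitary list -0.72 (-1.13 to -0.33), the mural list -0.75 (-1.57 to -0.0045) and the endothelial list -0.30 (-0.99 to 0.34). Their part in it was not tested, and Hbb-y is a globin gene of red blood cells. Sox3, a progenitor and hypothalamic factor gene, was at 43.4 against 11.7 CPM, Bcl11b, a zinc finger factor gene of projection neurons, at 200 against 73.8 CPM, and Nr4a2, an orphan nuclear receptor gene, at 49.0 against 18.1 CPM. Foxp1 was lower in these cells, at 48.4 against 79.5 CPM (-0.72, -1.09 to -0.36), whereas over all neurons it was higher in Foxp2-positive cells, at 113 against 82.7 CPM (0.45, 0.29 to 0.62).

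The partners and targets of the family were taken from lists. Of 30 tested corepressors and partners 4 were higher and 6 lower in neurons than in progenitors, shares near the 13.8% and 17.9% of all genes. Single members are given as values only. Chd5, a neuronal remodelling factor of the NuRD complex, was at 91.6 against 8.84 CPM and Nr2f2, an orphan receptor, at 205 against 91.7 CPM, while the NuRD subunit gene Gatad2a had a log2 ratio of -1.06 (-1.34 to -0.77). Tle1, a Groucho corepressor, was 1.21 higher on the log2 scale in Otp neurons (0.93 to 1.49), where Foxp1 was also higher. Of 21 genes reported as Foxp2 targets in other tissues, 10 were higher and 2 lower in neurons (13.8% and 17.9% of all genes), with a median log2 ratio of 1.14 against -0.07 for all tested genes. In Foxp2-positive against Foxp2-negative neurons 1 of 21 was higher (Etv1) and 2 lower, where 1.8% and 1.91% of all genes were. In the Nkx2-1/Tbx3 neurons 1 of 19 was higher and 1 lower (1.35% and 2.56% of all genes). The higher gene was Cntnap2, a neurexin family gene, at 187 against 89.3 CPM (1.07, 0.85 to 1.29).

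Of the 39 other forkhead genes, 16 were tested in neurons against progenitors, and 0 were higher and 5 lower, where 13.8% and 17.9% of all genes were. The lower ones included Foxj1, the factor of ciliated cells, at 4.01 against 56.3 CPM and Foxm1, a cell cycle factor, at 1.75 against 15.8 CPM. No forkhead gene tested other than Foxp2 was called higher in neurons.

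Over the 19 groups with at least 30 cells, Pearson's r of log2(CPM + 10) was 0.00 between Foxp1 and Foxp2, 0.70 between Foxp1 and Foxp4 and 0.19 between Foxp2 and Foxp4. Among 11104 genes with at least 100 UMIs, those most like Foxp1 were Nktr (0.90), Tle1 (0.85), Sfr1, Ppic and Amotl1. Those most like Foxp2 were Vash2 (0.86), Akap1, Slc25a4, Praf2 and Fbxo46, and those most like Foxp4 were Ppic (0.89), Tbrg1, Mmab, Amotl1 and Fbln1. These values describe groups of 1 library that differ in depth and share its preparation, and they carry no test.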

How the data were processed

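Single-cell RNA-seq was done on the 10X platform from pooled embryos. The authors deposited 1 table of raw UMI counts per gene and barcode, not normalized, and the 4 sample records are runs of it. Per the labels, Cell Ranger 2.1.1, STAR 2.4.0 and mm10 were used, and Seurat 2.0 is also listed. No barcode occurred more than once.

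From the counts, cells with 200 to 4500 genes, at most 10% mitochondrial UMIs and at most 10 Hba-a1 UMIs were kept (6351). No doublet caller was run. Neurons needed 2 Stmn2 UMIs and a gate 2 UMIs of its genes, with cells passing several gates (22) left out. Lineage gates needed 2, 3 or 5 UMIs. CPM has exact Poisson intervals, shares exact binomial (Clopper-Pearson) intervals, and log2 ratios conditional binomial intervals, at 95%. A gene was called at 2-fold with an interval that left out 0, among genes with at least 20 UMIs. Thinning was to 2167 UMIs, the depth 10% of cells do not reach. Where a member's count in a group was 0, a limit of 3 counts is given. Scripts ran in Python 3.11.15 with numpy 2.4.6, scipy 1.17.1 and biopython 1.88 (coding alignments), and were tested on simulated counts.

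The members, gates and lists were chosen with earlier results of these data known. Named genes were the members, gate and marker genes, list genes, the 5 genes most like each member and the 10 with the largest ratio in Foxp2-positive neurons (at least 50 UMIs). Splits by Gbx2, Fezf1 or Nr5a1, Pou4f1 and Sst, the terciles of neurons with no gate UMI and the exclusion of cells with UMIs of other lineages' markers were added after the data were seen.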

Additional observations from a re-analysis of the deposited data

How the results depend on the processing

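No paired analysis was possible because the columns carry no run or embryo, and for the same reason no replicate could be left out. The 18 log2 ratios (3 members, each neuron gate against the other neurons and neurons against progenitors) were recomputed in 11 ways, of which leaving out cells with a mesenchymal UMI was chosen after seeing the data. Of these values 186 stayed inside the interval of the reported value, and none of the 9 ratios whose interval leaves out 0 changed sign. With neurons by at least 5 Stmn2 UMIs, the ratios in Otp neurons were 0.37 for Foxp1 and -1.88 for Foxp2, that of Foxp2 was 1.26 in Robo3 neurons, and it was 0.17 in Gbx2/Kitl neurons (-0.07 to 0.41). Foxp2 in Gbx2/Kitl neurons was 0.88 with gates of at least 1 UMI, 1.05 with per-cell CPM and 1.10 after thinning, when Foxp1 there was 0.70 and Foxp2 in Fezf1/Nr5a1 neurons -0.72. Without a filter on cells Foxp1 in Gbx2/Kitl neurons was 0.74. Foxp1 in neurons against progenitors was -0.23 with neurons by at least 1 Stmn2 UMI and -0.26 with median-of-ratios scaling. The cause was not tested. The median log2 ratio of all genes was -0.20 in neurons against progenitors and 0.15 in Ghrh neurons, which that scaling sets to 0. With at least 2 UMIs of each gene, co-detection in all neurons was 2.30 for Foxp1 and Foxp2, 0.66 for Foxp1 and Foxp4 (1 cell where 1.52 would by independent detection, 0.02 to 3.66), 1.68 for Foxp2 and Foxp4, 0.82 for Foxp2 and Ghrh, 0.15 for Foxp2 and Otp and 0.25 for Foxp2 and Dlx1, and after thinning 0.27 for Foxp2 and Dlx1. The shares of genes called stayed within 1.5 times under other limits on low counts. At a median of 3338 UMIs per cell, Foxp4 and the 47 Ghrh neurons gave the widest intervals, and small differences there were not detectable at this depth.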
